A study of Mus musculus with 8 samples.

Results

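Growth factor receptors with tyrosine kinase activity pass their signal through Ras, Raf and MEK to the kinases ERK1 and ERK2, which are MAP kinases. Active ERK switches on its own brakes: Sprouty and Spred proteins act between the receptor and Raf, dual specificity phosphatases (Dusp) remove phosphate from MAP kinases, and the transcription factors Etv4 and Etv5 of the ETS family are made as targets of the pathway. In keratinocytes, the cells from which skin squamous cell carcinoma (SCC) arises, the pathway takes part in proliferation and in tumour formation. The 10 genes described here are Spry1, Spry2, Spry4, Spred1, Spred2, Dusp4, Dusp5, Dusp6, Etv4 and Etv5. They were chosen for these roles, with earlier results of these data known, and found by symbol in the annotation of the array. Of the 10, 9 had a probe set of their own among the 17097 genes measured. Dusp5, which encodes a nuclear ERK phosphatase, had none and has no value. Where a gene had several probe sets, the one with the brightest average signal stands for it, in log2 units, and the rest are given where they bear on a result.

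Cells were compared between the poorly differentiated stage of the tumours, which the labels write as PD/S-SCC and which is shortened to PD-SCC here, and the well differentiated stage (WD-SCC). All groups were cells with α6-integrin and CD34 on their surface, sorted after blood and endothelial cells had been depleted from tumours grafted at the orthotopic site in nude mice; the strain is given as FVB/C57/Bl6 and no age is given. Every tumour began in a K14-HPV16 mouse, in which the K14 promoter drives papillomavirus genes in basal keratinocytes, either spontaneously or after DMBA and TPA, and was passed from host to host as a lineage; the labels do not say which lineage arose in which way. Each stage had 4 arrays, 2 from lineage OT7 and 1 each from OT14 and OT15. The labels do not state whether both OT7 arrays of a stage are of different tumours, so the error behind the p-values is that of these arrays and may partly be technical, and their number limits the precision. Since the arrays measured sorted populations, fewer cells expressing a gene and less RNA per cell cannot be told apart.

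The array of OT15 WD-SCC stood apart from the other 7. Xist, the RNA that silences an X chromosome in female cells, read 9.45 on the OT15 PD-SCC array and 4.01 on the OT15 WD-SCC array, with 9.36 to 10.29 on the other 6. The Y-linked gene Eif2s3y read 3.43 on the OT15 PD-SCC array and 5.47 on the OT15 WD-SCC array, with 3.31 to 3.90 on the other 6, so these transcripts differ between 2 arrays labelled as 1 lineage. Cd34, a marker of the sort, read 8.72 on the OT15 PD-SCC array and 3.58, under the controls of that array, on the OT15 WD-SCC array, and Itga6 read 7.85 and 5.32 on the same arrays in that order. Results that rest on OT15 are therefore also given without that lineage where such a fit was made. The highest of 15 bacterial control probe sets without a spike lay at 3.61 to 3.81 on PD-SCC arrays and at 3.82 to 4.37 on WD-SCC arrays, and a gene above it is called above control. A control probe set for nonspecific binding read 6.66 to 7.08 on PD-SCC arrays and 8.0 to 8.53 on WD-SCC arrays, and whether this bears on the results was not tested. All 6 keratinocyte markers fell in PD-SCC, with a median difference of -4.81, and their mean level was 3.75 to 4.36 on PD-SCC arrays and 8.85 to 9.45 on WD-SCC arrays. Krt5 fell by 7.10 and Krt14 by 5.01 on the log2 scale, Epcam fell by 4.62, and Cdh1 (E-cadherin) was at least 4.31-fold lower, at or under the controls on all 4 PD-SCC arrays. The gene changes below thus stand beside a loss of keratinocyte transcripts, and its part in them was not tested.

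Of the 9 measured genes, Spry4 and Spred2 rose in PD-SCC, none fell, and 7 did not pass an adjusted p of 0.05 (limma with lineage as a block, adjusted over all genes). Over all genes, 7.78% rose and 4.81% fell by the same test, which is the background against which the small count of 2 in 9 is read. At an unadjusted p under 0.05, 4 of the 9 were higher and 1 was lower. Counts of stage differences at that cutoff, here and below, have no share of all genes beside them and are not read as a result. The median difference, PD-SCC minus WD-SCC, was 0.36 for the 9 genes and -0.06 for all genes. In both Spry4 and Spred2 all 4 PD-SCC arrays lay above all 4 WD-SCC arrays, as they did in 10.8% of all genes. Without lineage OT15 the same 2 genes passed and again none fell. In that fit 842 of all 17097 genes were higher and 440 lower, against 1331 and 823 with all lineages. Calls lost without OT15, here and below, are read against this smaller number of calls over all genes.

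Spry4 is a Sprouty protein that dampens growth factor signalling to Ras and Raf. Its log2 values (probe set 1440867_PM_at) were 8.38 and 8.18 on the OT7, 9.56 on the OT14 and 9.85 on the OT15 array of PD-SCC, against 6.31 and 6.74 on the OT7, 7.11 on the OT14 and 6.42 on the OT15 array of WD-SCC. The stages did not overlap, and the lowest PD-SCC values were the pair from OT7. Means were 8.99 ± 0.83 in PD-SCC and 6.64 ± 0.36 in WD-SCC (SD, n = 4 each). The difference was 2.35 ± 0.31 (SE), or 5.09-fold, with a 95% interval of 1.58 to 3.12 and an adjusted p of 0.0110 (limma). It was 1.99 without lineage OT15, with an adjusted p of 0.0167. The call was lost without lineage OT7 or with its arrays averaged within a stage (adjusted p = 0.0648 each). Of the 4 probe sets of the gene 3 were higher in PD-SCC past the threshold when each of the 28898 probe sets of 1 gene was tested on its own. Among the others, 1422021_PM_at read 5.68 to 7.77 on PD-SCC arrays and 3.96 to 4.26 on WD-SCC arrays, where 2 of 4 were above control, a difference of 2.75 ± 0.39 with an adjusted p of 0.0147. The smallest called difference, 0.99 ± 0.23 with an adjusted p of 0.0490, was that of 1422020_PM_at, whose stages overlapped. Probe set 1445669_PM_at, above control on 2 PD-SCC arrays and 0 WD-SCC arrays, did not pass (adjusted p = 0.0751).

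The other Sprouty genes had no such difference. Spry2, which like Spry4 holds back growth factor signalling, had values of 8.41 and 8.61 on the OT7, 9.90 on the OT14 and 9.55 on the OT15 array of PD-SCC, against 9.75 and 9.17 on the OT7, 8.62 on the OT14 and 9.28 on the OT15 array of WD-SCC. The stages overlapped over most of their range, and OT7 and OT14 went opposite ways. The difference over lineages was -0.09, with a 95% interval of -1.11 to 0.94 and an adjusted p of 0.898 (limma). A second probe set, 1436584_PM_at, differed by -1.46 in OT7, by 2.81 in OT14 and by 0.03 in OT15. Spry1 ranged from 4.08 to 5.70 on PD-SCC arrays and from 3.44 to 5.09 on WD-SCC arrays, of which 2 were above control, and its difference was 0.36 with an interval of -0.84 to 1.56 and an adjusted p of 0.637. In each stage the highest Spry1 value was on an OT7 array. Of the relatives outside the 10 genes, Spry3 was not above control on any array. Spred3, a member of the Spred family, read 4.91 to 5.03 on PD-SCC arrays and 5.01 to 5.42 on WD-SCC arrays, with an adjusted p of 0.221.

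**Figure D1:**
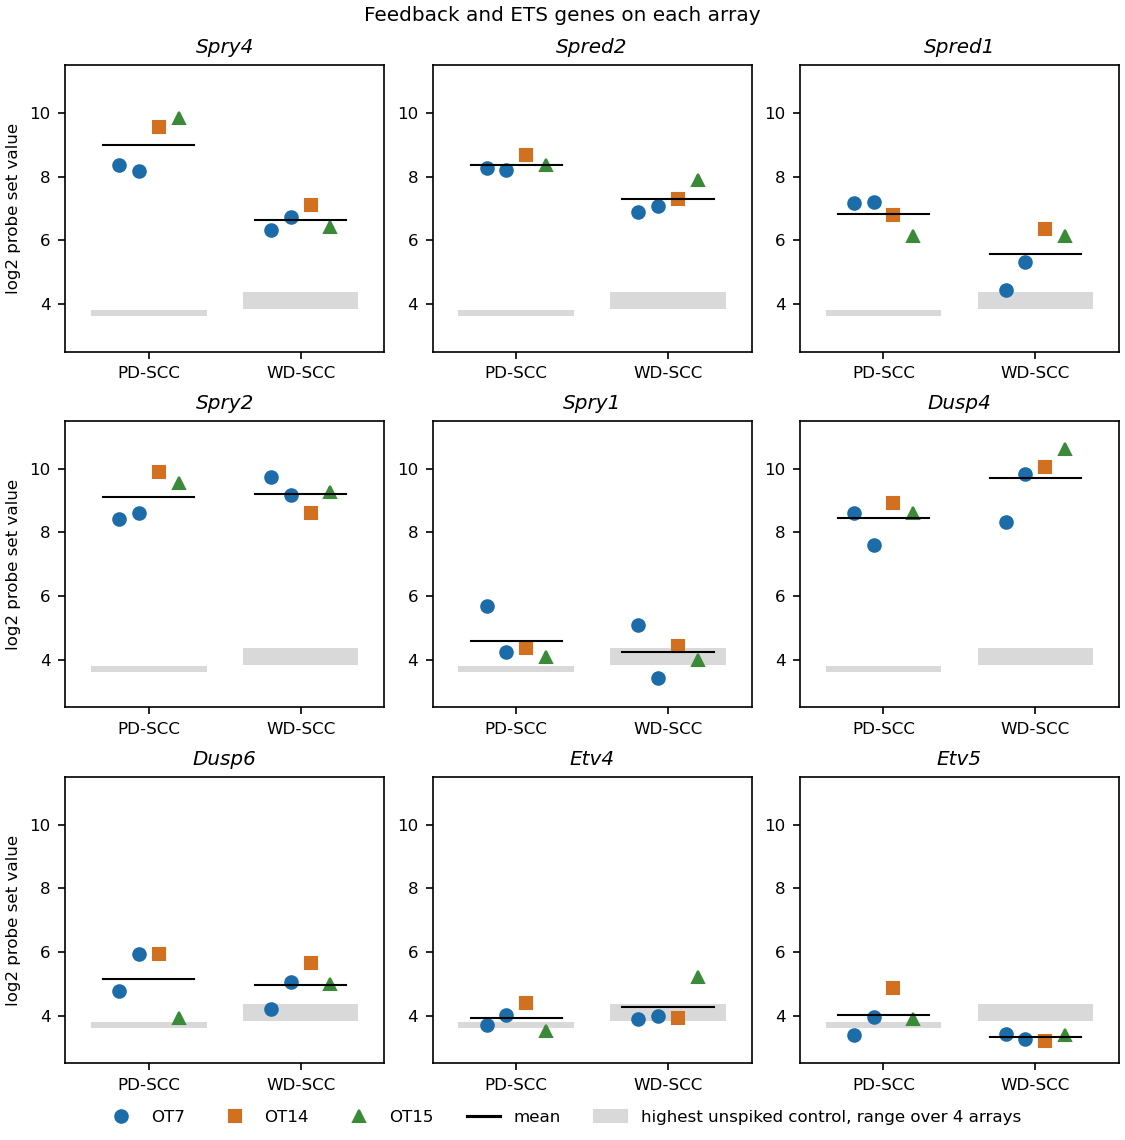
Log2 value of each measured gene on each array (y axis, log2 units), with the 4 PD-SCC arrays left of the 4 WD-SCC arrays; colour and shape give the lineage, the line is the mean and the grey band spans the highest unspiked control over the 4 arrays of a stage. The PD-SCC points of Spry4 (8.18 to 9.85) and Spred2 (8.20 to 8.67) lie wholly above the WD-SCC points (6.31 to 7.11 and 6.89 to 7.91), while in the other 7 genes the stages overlap.

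Spred proteins bind neurofibromin and bring it to the membrane, where it switches Ras off. Spred2 (probe set 1423001_PM_at) read 8.26 and 8.20 on the OT7, 8.67 on the OT14 and 8.35 on the OT15 array of PD-SCC, against 6.89 and 7.09 on the OT7, 7.28 on the OT14 and 7.91 on the OT15 array of WD-SCC. The stages did not overlap, the PD-SCC arrays lay close together, and the gap was narrowest in OT15. Means were 8.37 ± 0.21 in PD-SCC and 7.29 ± 0.44 in WD-SCC (SD, n = 4 each), a difference of 1.08 ± 0.18 (SE), or 2.11-fold, with a 95% interval of 0.64 to 1.52 and an adjusted p of 0.0192 (limma). Without lineage OT15 the difference was 1.29 and the adjusted p 0.0127. The call is less firm than that of Spry4. It held when 3 of the 8 arrays were left out in turn and was lost for the other 5, with adjusted p of 0.0127 to 0.0688. These are not all separate checks, since leaving out either array of OT14 or OT15 gives the same fit as leaving out that lineage. The call was also lost when the OT7 arrays of a stage were averaged (adjusted p = 0.121), without OT7 (0.245) and after cyclic loess normalization (0.0690). The fit without OT14 (0.0623) is already counted among the 5.

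A further probe set of Spred2, 1434403_PM_at, read 6.34 to 6.94 on PD-SCC arrays and 4.94 to 5.84 on WD-SCC arrays and was called as well (1.15 ± 0.24, adjusted p = 0.0392). The dimmer 1436892_PM_at was not above control on any WD-SCC array and at least 1.25-fold higher in PD-SCC, with an adjusted p of 0.0516. The remaining 2 probe sets, which lay near the controls, differed by -0.35 and 0.23, with adjusted p of 0.360 and 0.419.

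Spred1 shares this role, and its probe sets differed from each other. The brightest, 1423160_PM_at, read 7.16 and 7.20 on the OT7, 6.79 on the OT14 and 6.14 on the OT15 array of PD-SCC, against 4.45 and 5.30 on the OT7, 6.35 on the OT14 and 6.12 on the OT15 array of WD-SCC. On this probe set the gap lay in OT7, and the OT15 PD-SCC array fell below the OT14 WD-SCC array. The difference was 1.27 ± 0.48 (SE), with a 95% interval of 0.09 to 2.45 and an adjusted p of 0.135 (limma). Of the 4 other probe sets 3 were higher in PD-SCC past the threshold over all probe sets, each with no overlap between stages. Probe set 1423162_PM_s_at read 5.35 to 6.22 on PD-SCC arrays and 4.12 to 4.89 on WD-SCC arrays, a difference of 1.52 ± 0.16 (adjusted p = 0.00763). For 1428777_PM_at the values were 5.16 to 6.59 on PD-SCC arrays and 3.52 to 4.45 on WD-SCC arrays (2.17 ± 0.32, adjusted p = 0.0167), and for 1452911_PM_at 4.87 to 6.42 on PD-SCC arrays and 3.09 to 4.53 on WD-SCC arrays (2.25 ± 0.28, adjusted p = 0.0107). These 3 differed in the same direction in every lineage, by 1.84, 1.17 and 1.23 for the first in OT7, OT14 and OT15, but only 1 WD-SCC array was above control for each of the last 2. Whether the probe sets read different transcripts of Spred1 is not settled by the annotation used here. Taken over all its probe sets as a mean, Spred1 passed the threshold with an adjusted p of 0.0195.

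The 9 genes had 21 probe sets in all, of which 8 were higher in PD-SCC past the threshold and 0 lower, while 6.96% of the 28898 probe sets were higher by that test. Probe sets of 1 gene are not independent, and all 8 belong to Spry4, Spred1 and Spred2.

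**Figure D2:**
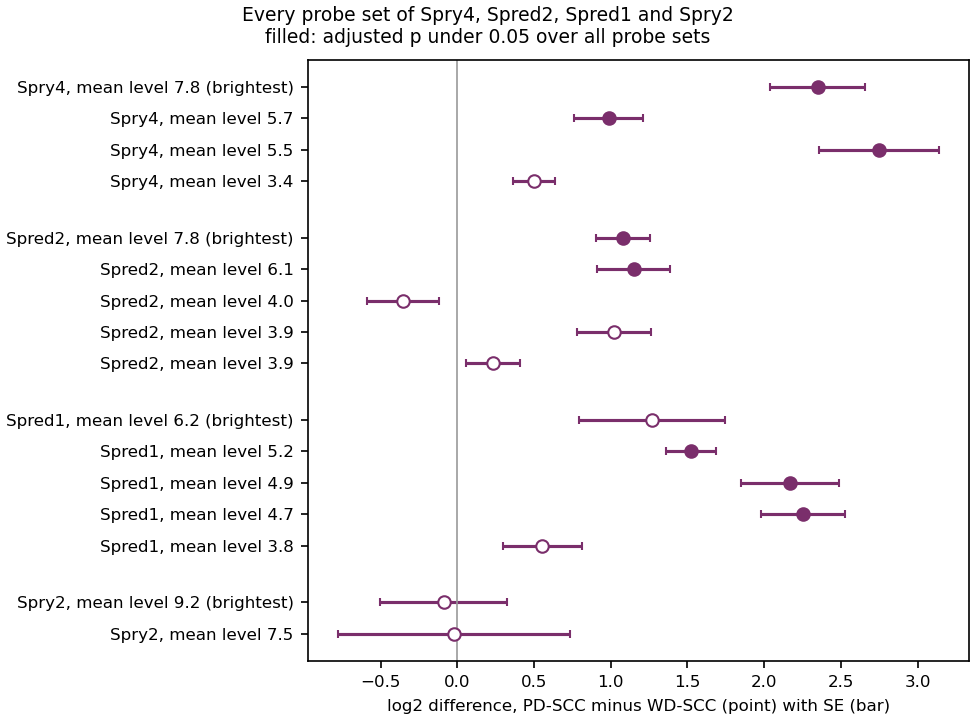
Difference between PD-SCC and WD-SCC (x axis, log2 units, point with SE as the bar) for each probe set of Spry4, Spred2, Spred1 and Spry2, labelled by its mean level; filled points have an adjusted p under 0.05 over all probe sets. Filled points of Spry4, Spred2 and Spred1 all lie above 0, the probe set of Spred1 with the highest level is among the open points, and both of Spry2 lie near 0 (-0.09 and -0.02).

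Promoter windows from RefSeq (build GRCm38.p6, 250 bases before to 50 after a gene's start) were at hand for 7 of the 10 genes in 8 windows, Spry4 not among those searched. The ETS motif CGGAAG, on either strand, was in 3 of the 8 windows and in 16.9% of 32851 windows of the same length. The 3 windows are those of Spred2, Spred1 and Dusp6, and they are shown because they hold the letters that ETS factors, the nuclear end of the pathway, bind; the first and second belong to genes with called probe sets and the third does not. Each is printed 5′ to 3′ from 250 bases before the start through the first 30 transcribed bases, with the motif in capitals. The Spred2 window is chr11:19924192-19924471, plus strand, the Spred1 window chr2:117120821-117121100, plus strand, and the Dusp6 window chr10:99262981-99263260, plus strand.
Spred2: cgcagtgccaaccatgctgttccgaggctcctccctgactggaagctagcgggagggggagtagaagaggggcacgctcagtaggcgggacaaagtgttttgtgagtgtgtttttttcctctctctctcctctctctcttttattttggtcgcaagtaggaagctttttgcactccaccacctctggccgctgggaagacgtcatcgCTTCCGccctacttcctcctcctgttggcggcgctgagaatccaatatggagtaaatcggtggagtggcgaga
Spred1: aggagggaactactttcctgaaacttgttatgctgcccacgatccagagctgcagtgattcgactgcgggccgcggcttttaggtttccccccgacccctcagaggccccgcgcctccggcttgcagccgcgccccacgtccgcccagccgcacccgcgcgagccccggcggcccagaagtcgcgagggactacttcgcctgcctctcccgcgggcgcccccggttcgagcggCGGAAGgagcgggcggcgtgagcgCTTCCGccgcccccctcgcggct
Dusp6: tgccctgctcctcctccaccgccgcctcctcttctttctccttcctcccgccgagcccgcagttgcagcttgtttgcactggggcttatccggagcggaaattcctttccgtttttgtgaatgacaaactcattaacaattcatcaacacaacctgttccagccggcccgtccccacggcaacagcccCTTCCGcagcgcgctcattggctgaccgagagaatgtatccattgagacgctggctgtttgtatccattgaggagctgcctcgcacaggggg
The motif begins 43 bases before the start of Spred2, 62 before that of Dusp6, and 17 before and 7 after that of Spred1, and apart from the match 17 before the start of Spred1 all are on the minus strand. The AP-1 motif TGANTCA was in none of the 8 windows and in 7.81% of all. The cyclic AMP response motif TGACG was in 2 windows, of Spred2 and Dusp5, and in 20.8% of all, and the CArG box was in that of Dusp5 and in 1.63% of all. No motif overlapped another in these windows. A match describes the letters and does not show that a factor binds there.

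Dusp4 removes phosphate from MAP kinases in the nucleus, and its values ran the other way. They were 8.62 and 7.62 on the OT7, 8.94 on the OT14 and 8.60 on the OT15 array of PD-SCC, against 8.32 and 9.84 on the OT7, 10.07 on the OT14 and 10.63 on the OT15 array of WD-SCC. All PD-SCC values but the lower OT7 one exceeded the unnumbered OT7 WD-SCC array, whose 8.32 lay well below the other 3 of its stage. Means were 8.44 ± 0.57 in PD-SCC and 9.71 ± 0.99 in WD-SCC (SD, n = 4 each). The difference was -1.27 ± 0.43 (SE), with a 95% interval of -2.33 to -0.21, below 0 in each lineage, and its adjusted p of 0.108 did not pass. Without the unnumbered OT7 WD-SCC array the adjusted p was 0.0442 (limma), so this call rests on 1 array; without lineage OT15 it was 0.261. Dusp6, the cytoplasmic phosphatase specific for ERK and a widely used readout of ERK activity, ranged from 3.94 to 5.95 on PD-SCC arrays and from 4.20 to 5.67 on WD-SCC arrays. Its difference was 0.18, with an interval of -0.89 to 1.25 and an adjusted p of 0.802, and the lineages gave 0.74 (OT7), 0.28 (OT14) and -1.05 (OT15).

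Etv5 was near the limit of the arrays. It read 3.38 and 3.95 on the OT7, 4.86 on the OT14 and 3.89 on the OT15 array of PD-SCC, of which 3 were above control, against 3.41 and 3.26 on the OT7, 3.19 on the OT14 and 3.40 on the OT15 array of WD-SCC, none above control. The highest value was that of OT14 PD-SCC. The gene did not pass (adjusted p = 0.146, limma), and no difference is given since WD-SCC has only a bound. A further 2 probe sets shared with another gene, Scpep1, were not used. Etv4 was above control on 2 arrays of each stage, with values of 3.53 to 4.40 on PD-SCC arrays and 3.90 to 5.23 on WD-SCC arrays, and the highest was OT15 WD-SCC, the array that stood apart. Its difference was -0.35 (interval -1.22 to 0.52, adjusted p = 0.523), and 0.10 without lineage OT15.

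The differences within single lineages came from a fit whose 2 residual degrees of freedom are those of the OT7 arrays, with OT14 and OT15 assumed to vary like OT7. Within OT7, 3 of the 9 genes were higher in PD-SCC past the threshold, against 6.21% of all genes, and none was lower, with 1 lower at an unadjusted p under 0.05. They were Spred1 (2.31, adjusted p = 0.0391, limma), Spry4 (1.75, adjusted p = 0.0303) and Spred2 (1.24, adjusted p = 0.0290). Within OT14 none passed, against 0.181% of all genes, and 4 were higher at an unadjusted p under 0.05. Spry4 differed there by 2.45 (adjusted p = 0.0786), Spred2 by 1.38 (0.105) and Spry2 by 1.28 (0.241). The fourth was Etv5 (0.163), whose WD-SCC array was not above control, so that no difference is given. Within OT15 Spry4 alone passed, against 0.562% of all genes, with a difference of 3.43 (adjusted p = 0.0413), while Spred2 differed by 0.44 and Spred1 by 0.02. Etv4 was lower there at an unadjusted p of 0.00238 (adjusted 0.0724), with 3.53, under the controls, on the PD-SCC array and 5.23 on the WD-SCC array. These OT15 values rest on the WD-SCC array that stood apart.

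Of the 9 genes 5 had the same sign in all 3 lineages, as did 51.3% of all genes. A test of whether the stage difference itself varied between lineages called none of the 9 and 0.0% of all genes at an adjusted p of 0.05 (limma), and 4 of the 9 at an unadjusted p under 0.05, against 11.9% of all genes. The 4 were Etv4 (unadjusted p = 0.00717, adjusted 0.243), Spry2 (0.0174, adjusted 0.298), Spry4 (0.0262, adjusted 0.341) and Spred1 (0.0299, adjusted 0.356). For Spry2 the lineages differed in sign, at -0.95 in OT7, 1.28 in OT14 and 0.27 in OT15, and for Spry4 in size. For Etv4 the differences were -0.09 in OT7, 0.47 in OT14 and -1.70 in OT15. The test between lineages includes the OT15 WD-SCC array that stood apart and was not run without OT15. How far the count of 4 rests on that array was therefore not tested.

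**Figure D3:**
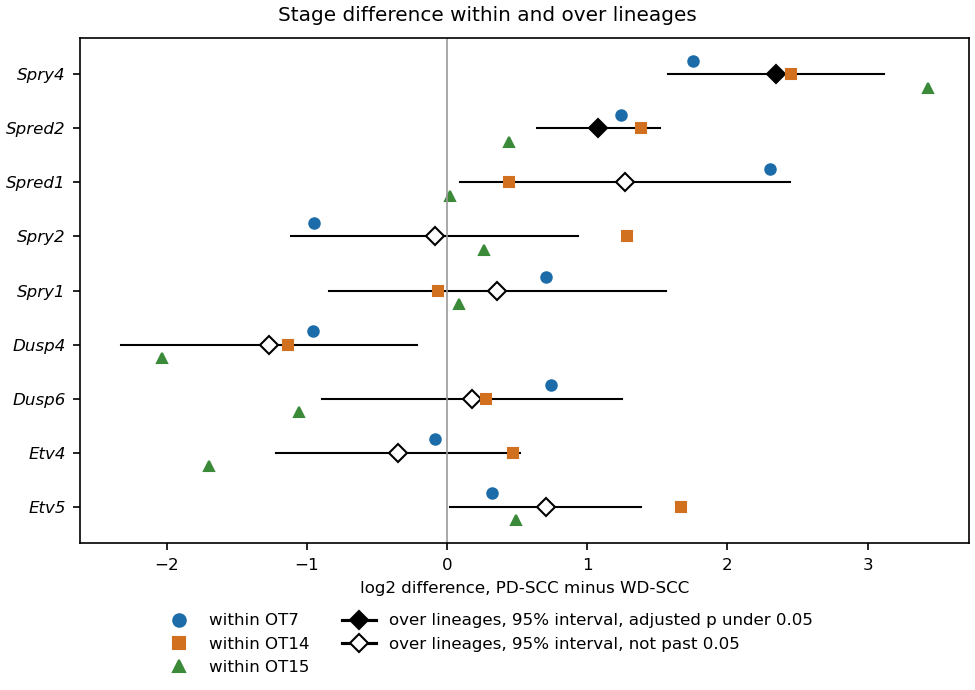
Difference between PD-SCC and WD-SCC (x axis, log2 units) of each measured gene within each lineage (coloured points) and over lineages (diamond with its 95% interval, filled where the adjusted p is under 0.05). Spry4 lies above 0 in every lineage, from 1.75 in OT7 to 3.43 in OT15, Dusp4 lies below 0 in every lineage, and Spry2, Spry1, Dusp6 and Etv4 lie on both sides of 0.

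The profiles most like that of Spry4, by the root mean square distance over the 8 arrays after each profile was set to its own mean, were those of Ltbp4 (0.320 log2 units), Cenpv (0.340) and Layn (0.348). Nearest to Spred2 were Tead1 (0.132), Mtch1 (0.141) and Ap1m1 (0.202). The distance includes the stage difference, so genes with a like change between stages come first.

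Other genes of the pathway were taken from lists by role and are described by their counts. Among 10 receptor kinases 1 rose and 2 fell, with a median difference of 0.23. Met, the receptor of hepatocyte growth factor, rose by 0.96 (8.41 ± 0.23 in PD-SCC and 7.45 ± 0.24 in WD-SCC, SD, n = 4 each, adjusted p = 0.0266, limma). Erbb3, which pairs with other receptors of the EGF receptor family, fell by 3.43 (adjusted p = 0.0363), and Fgfr2, a receptor of fibroblast growth factors, fell by 1.27 (adjusted p = 0.0493). Egfr, the EGF receptor, differed by -0.88 with no overlap between stages and an adjusted p of 0.0667, but by -0.074 when the mean of its probe sets was taken (0.793). Fgfr1 differed by 0.65 with an adjusted p of 0.335. Without lineage OT15 only Fgfr2 of the 10 passed, with -1.56, while Met differed by 0.91 (adjusted p = 0.0802) and Erbb3 by -2.67 (0.0688). The call of Fgfr2 held in 10 of 20 alternatives and when 2 of the 8 arrays were left out in turn. Both are from OT15 and repeat the fit without that lineage. The calls of Met and Erbb3 held in 10 and 9 of 20.

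Between receptor and ERK, 15 of 23 listed adaptors, exchange factors and kinases had a probe set, and the other 8 were not analysed here. Of the 15, 1 rose and 1 fell, with a median difference of -0.14. Nras, a Ras protein, rose by 0.68 (9.24 ± 0.30 in PD-SCC and 8.55 ± 0.36 in WD-SCC, SD, n = 4 each, adjusted p = 0.0273, limma), and Ksr1, a scaffold that holds Raf, MEK and ERK together, fell by 1.02 (adjusted p = 0.0282). Without lineage OT15 their differences were 0.60 (adjusted p = 0.0780) and -1.01 (0.0804), and neither passed, while the adaptor Shc1 did. The call held in 3 of 20 alternatives for Nras, whose difference was 0.29 after cyclic loess, and in 9 of 20 for Ksr1.

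Of 17 measured brakes outside the 10 genes 1 rose and 2 fell, with a median difference of -0.05. Pebp1, the Raf kinase inhibitor protein, rose by 1.51 (10.93 to 11.36 on PD-SCC arrays and 9.34 to 9.91 on WD-SCC arrays, adjusted p = 0.00591, limma) and passed without lineage OT15 as well. Cblc, a ubiquitin ligase of receptor kinases in epithelia, fell by 4.23 (adjusted p = 0.0333), with 3.71 to 3.94 on PD-SCC arrays and 5.07 to 9.54 on WD-SCC arrays. Sulf1, which trims heparan sulfate and so limits growth factor binding, was at least 3.63-fold lower (adjusted p = 0.0312) and not above control on any PD-SCC array. Without OT15 the differences of Cblc and Sulf1 were -3.78 (adjusted p = 0.095) and -2.09 (0.0782) and did not pass, while the related sulfatase Sulf2 did. Their calls held in 10 and 9 of 20 alternatives.

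Among the 8 other dual specificity phosphatases none rose and 2 fell past the threshold, with a median difference of -0.54. At an unadjusted p under 0.05 there were 0 higher and 4 lower, for which no share of all genes is given. Dusp14, described as a phosphatase of MAP kinases, fell by 4.44, with 4.32 to 4.77 on PD-SCC arrays, 7.85 to 9.57 on WD-SCC arrays and an adjusted p of 0.00438 (limma). Dusp8, which acts mainly on the stress kinases JNK and p38, fell by 1.31 (adjusted p = 0.0192), and without lineage OT15 its difference was -1.38 and did not pass (0.0508). Dusp1, a phosphatase of the immediate early response, differed by -0.65 with an adjusted p of 0.227.

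Of 15 other ETS factors measured none rose and 3 fell past the threshold, with a median difference of -0.40. At an unadjusted p under 0.05 there were 1 higher and 8 lower, for which no share of all genes is given. Ehf and Elf3, ETS factors of epithelial cells, fell by 5.01 (adjusted p = 0.00850, limma) and by 4.97 (adjusted p = 0.0238), beside the keratinocyte markers. Ehf read 3.60 to 4.19 on PD-SCC arrays and 6.98 to 9.77 on WD-SCC arrays, and Elf3 3.74 to 4.59 and 6.30 to 10.61. Each was above control on 3 PD-SCC arrays, so the sizes are limited by the controls. As a mean of probe sets Ehf differed by -2.09. The call of Elf3 held in 11 of 20 alternatives and when 2 of the 8 arrays were left out in turn. Ets2, an ETS factor that ERK phosphorylates, fell by 0.63 (adjusted p = 0.0464). Its call held in 3 of 20 alternatives and in 0 of the 8 fits that left out 1 array. Etv1, the third member of the subfamily of Etv4 and Etv5, differed by 0.71, with 4.06 to 5.19 on PD-SCC arrays and 3.53 to 3.96 on WD-SCC arrays and an adjusted p of 0.0901, and Ets1 differed by 0.48 (adjusted p = 0.185). Ehf alone of the 15 passed without lineage OT15, with -4.62, while Elf3 differed by -4.33 (adjusted p = 0.0684) and Ets2 by -0.70 (0.0818).

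Among 12 other transcripts known to rise with ERK activity 1 rose and 1 fell, with a median difference of 0.01. Egr1, an immediate early transcription factor, rose by 1.70 (10.89 to 11.99 on PD-SCC arrays and 9.29 to 10.43 on WD-SCC arrays, adjusted p = 0.0406, limma). Its call held in 9 of 20 alternatives and when 2 of the 8 arrays were left out in turn. Both are from OT15 and repeat the fit without that lineage. Epha4, an ephrin receptor, fell by 0.57 (adjusted p = 0.0491), and differed by -0.52 without lineage OT15, where it did not pass (0.133). It read 3.84 to 4.18 on PD-SCC arrays, above but near the controls, and 4.31 to 4.82 on WD-SCC arrays. The call of Epha4 held in 4 of 19 alternatives and when 1 of the 8 arrays was left out. With the mean of its probe sets it was lost (-0.32, adjusted p = 0.0572, limma). Cyclin D1 (Ccnd1) differed by 1.38 with an adjusted p of 0.106, and by 0.90 without OT15. Fosl1 of the AP-1 family differed by 0.43 (0.521), by 0.12 without OT15 and by -0.57 within OT7. Phlda1 differed by -1.09 (0.187).

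**Figure D4:**
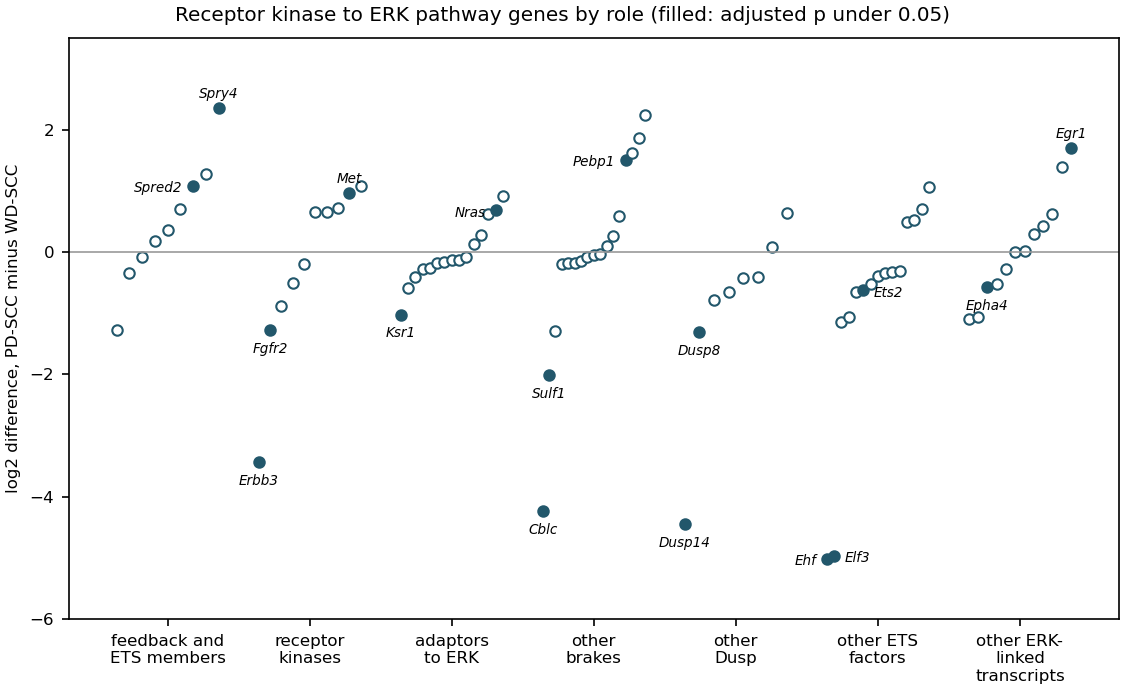
Difference between PD-SCC and WD-SCC (y axis, log2 units) of each measured gene of the pathway, in columns by role and ordered by size within a column; filled points have an adjusted p under 0.05 and are named. Spry4 and Spred2 are the filled points of the first column and lie above 0, while Dusp14, Ehf, Elf3, Cblc and Erbb3 lie between -3.43 and -5.01.

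Markers of cell types other than keratinocytes were set beside these values. None of 9 fibroblast and mesenchymal markers passed, 2 were higher at an unadjusted p under 0.05 (limma), the median difference was 0.36, and their mean level was 6.21 to 6.93 on PD-SCC arrays and 4.98 to 7.68 on WD-SCC arrays. Vim (vimentin) read 10.45 to 11.12 on PD-SCC arrays and 9.11 to 10.30 on WD-SCC arrays, with an adjusted p of 0.0738. It passed in 4 of 20 alternatives, among them the mean of its probe sets (1.42, adjusted p = 0.0263, limma). Pdgfra was not above control on any WD-SCC array. Of the 9 markers 6 were higher in PD-SCC, and the differences ran from -1.43 (Lum) to 1.20 (Col3a1). Col1a1 differed by -0.15, Fap by -0.19 and Dcn by 0.01, so the list had no common direction. Of 8 blood cell markers, with mean levels of 3.79 to 4.39 on PD-SCC arrays and 4.38 to 5.08 on WD-SCC arrays, only Cd68 passed the threshold, where it fell by 2.79, the median difference was -0.32, and Ptprc (CD45) was not above control on any array. Of 6 endothelial markers, with mean levels of 3.72 to 4.39 on PD-SCC arrays and 4.08 to 6.21 on WD-SCC arrays, 0 were higher in PD-SCC and the median difference was -1.21. Cldn5 alone passed the threshold and fell by 1.19. Pecam1 (CD31) read 3.47 to 4.21 on PD-SCC arrays and 4.34 to 7.54 on WD-SCC arrays, with no overlap, a difference of -2.66 and an adjusted p of 0.0531 (limma), which passed in 9 of 20 alternatives. Cdh5 (VE-cadherin) differed by -2.54 with an adjusted p of 0.177. None of the 5 measured melanocyte and Schwann cell markers passed, 3 were lower at an unadjusted p under 0.05, the median difference was -0.27, and their mean level was 3.53 to 3.61 on PD-SCC arrays and 3.75 to 3.93 on WD-SCC arrays. Of the markers of the sort, Itga6 differed by -0.30 (adjusted p = 0.796, limma) and Cd34 by 1.67 (adjusted p = 0.241). Leaving out lineage OT15 moved them to -1.24 (adjusted p = 0.0911) and 0.50 (adjusted p = 0.316), so both values over lineages rest largely on OT15. Itga6 differed by -1.665 within OT7, past the threshold (adjusted p = 0.0379, limma), by -0.40 within OT14 and by 2.53 within OT15. Cd34 differed by 0.21, 1.09 and 5.15 within OT7, OT14 and OT15. The part of other cell types in the values of the 9 genes was not tested.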

How the data were processed

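The 8 arrays are Affymetrix single-colour arrays of biotin-labelled RNA, with 4 arrays per stage. Values were deposited on the log2 scale, as their range of 2.40 to 13.2 shows, with array medians of 3.66 to 3.77. The affy package and RMA (background correction, quantile normalization and summary over probes) were used per the submitters' processing notes, without a version; which arrays were normalized together is not stated. Scanner files were not used here. Pairing by lineage comes from the labels: deviations from the stage means correlated at -0.04 in OT7, 0.02 in OT14 and 0.06 in OT15 across genes.

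The platform annotation gave 1 gene symbol to 28898 of 45141 probe sets, several to 551 and none to 15588, beside 104 controls, with symbols updated through RefSeq (99.1% of genes matched). The brightest probe set stood for each of 17097 genes. The stage effect was fitted with limma 3.58.1 in R 4.3.3 (lmFit, eBayes, two-sided, lineage as a fixed block, 4 residual degrees of freedom), with Benjamini-Hochberg adjustment over all genes and a threshold of 0.05; a second fit had 1 coefficient per lineage and stage. Where no array of 1 stage was above its highest unspiked control, the fold is a bound, taken from the mean of the brighter stage over the mean of the larger of gene and control on each dim array. On simulated data for 17097 genes this fit found 55% of changes of 1 log2 unit and 83% of those of 2 units, and 5.48% of calls were false. The simulated arrays were independent and had no lineage effects. In them 200 genes were changed, while 1331 were called higher and 823 lower in the data. These rates therefore describe the simulated setting and not the arrays studied here. Python 3.11.15 and matplotlib 3.10.9 drew the plots.

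The genes and lists were chosen with earlier results of these data known. Named are all 10 genes, up to 3 called genes per list by smallest p, a set of pathway and marker genes whatever their values, and the 3 nearest profiles of each called gene. Xist, Eif2s3y, Shc1 and Sulf2 were named after their values were seen. Alternatives were no block, a random block, averaged OT7 arrays, a filter on dim genes, other probe sets or their mean, cyclic loess, scaling to the 75th percentile, another prior, array weights, and leaving out arrays or lineages. With lineage as a block, leaving out either array of OT14 or OT15 gives the fit without that lineage. Counts of alternatives or of left-out arrays therefore include repeated fits. Counts of each list without OT15 were added after seeing the data.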

Additional observations from a re-analysis of the deposited data

Results flagged for a closer look

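Of 18 groups of 4 arrays (9 genes in each stage), 2 held an array whose gap to the nearest other was a larger part of the group's range than Dixon's 95% limit for 4 values; chance alone marks about 1 group in 20. Spry1 read 5.70 on 1 of the PD-SCC arrays of OT7 and 4.08 to 4.35 on the other 3 of its stage, a gap of 0.831 of the range. Etv4 read 5.23 on the OT15 WD-SCC array and 3.90 to 3.98 on the other 3 of its stage, a gap of 0.937 of the range, on the array that also stood apart in Xist, Eif2s3y and Cd34. Whether that array's other differences bear on its Etv4 value was not tested.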

How the results depend on the processing

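With 1 value per gene, Spry4 kept its direction in all 20 alternatives and its call in 18, with differences of 1.65 to 2.94. Among these, the fits without 1 array of OT14 or OT15 repeat the fit without that lineage. The call was lost with OT7 arrays averaged and without lineage OT7 (adjusted p = 0.0648 each). Its other probe sets, taken singly, gave 2.75, 0.99 and 0.50, the last not past the threshold (adjusted p = 0.0751) and not above control on any WD-SCC array. Spred2 kept its direction in these alternatives and its call in 11 of 20, with differences of 0.62 to 1.29, and reversed on its dim probe set 1441415_PM_at (-0.35). The number of genes higher in PD-SCC was 2 and became 0 with OT7 arrays averaged or without lineage OT7, 1 after cyclic loess or without OT14, 3 with the mean of probe sets, and 1 to 2 when single arrays were left out; the number lower was 0, and 0 to 1 when single arrays were left out. Without the replicate block, as a fit of stage alone, Spry4 (adjusted p = 0.0130) and Spred2 (0.0233) remained the only calls among the 9 genes. Uncalled differences changed sign as follows. With OT7 averaged Dusp6 was -0.013, Spry2 0.20 and Itga6 0.15, and without OT7 they were -0.39, 0.77 and 1.06. Without lineage OT15, Etv4 was 0.10. With single arrays left out, Dusp6 ranged from -0.17 to 0.59, Spry1 from -0.041 to 0.62, Spry2 from -0.55 to 0.20, Etv4 from -0.62 to 0.10 and Itga6 from -1.24 to 0.077. The causes were not tested. Over all genes 1331 were higher and 823 lower, against 784 and 959 after cyclic loess, 1150 and 1205 with scaling to the 75th percentile, which moved the median difference of all genes from -0.06 to -0.21, and 202 and 199 with OT7 averaged. Etv4, Etv5 and Spry1 lay close to the controls, which limits what their values can show.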
